A study of Mus musculus with 8 samples.

Results

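The transcripts of 56 antioxidant genes were followed in cultured mouse kidney tubular epithelial cells with and without Aldh2, out of 14145 genes listed in the deposited expression table. The genes were chosen by symbol: the numbered Gst, Mgst, Prdx, Sod, Txnrd and Glrx families, the Gpx family other than Gpx4, the enzymes that make and recycle glutathione, the thioredoxins, sulfiredoxin, methionine sulfoxide reductases and glyoxalases, and Nfe2l2, Keap1, Bach1 and a few of their targets. All 56 genes are accounted for.

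Aldh2 encodes the mitochondrial aldehyde dehydrogenase that oxidises acetaldehyde and the aldehydes released by lipid peroxidation. The study compared primary tubular epithelial cells from mice lacking Aldh2 in tubular epithelium (KO, 4 libraries) with cells from control mice (4 libraries, titled WT). All cells were cultured in serum-containing DMEM/F12 and received no treatment. The sources used here do not give the promoter that drove the deletion, nor the strain, age or sex of the mice. They also leave unsaid how many animals supplied the libraries. The p-values below therefore reflect differences among these libraries, part of which may be technical. The genotype field of the KO samples runs from ALDH2 to ALDH5, so groups were taken from the titles.

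Nrf2, the product of Nfe2l2, is a transcription factor that is held low by Keap1 and accumulates when electrophiles or oxidants modify Keap1. It then binds antioxidant response elements and raises the transcription of genes for glutathione synthesis, glutathione transfer, thioredoxin recycling and quinone reduction, while Bach1 represses several of the same genes. Glutathione and thioredoxin in turn supply the electrons with which peroxidases and peroxiredoxins remove peroxides, and glutathione transferases join glutathione to reactive aldehydes. Proximal tubule cells are rich in mitochondria, and the kidney is the main source of the secreted peroxidase Gpx3.

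Promoters of 4 members that carry the core letters of the antioxidant response element are printed because they stand for the different patterns described further on: the regulator Nfe2l2, the glutathione synthesis gene Gclm, the abundant peroxiredoxin Prdx1, and Sod1, whose groups did not overlap. Each is a stretch before the first base of the gene, 5′ to 3′ on the gene's own strand, from RefSeq on GRCm38.p6. It ends just before the gene's first base in Gclm, Prdx1 and Sod1 and 22 bases short of it in Nfe2l2, by the gene positions given further on. Capitals mark the match to TGACNNNGC on either strand.
Nfe2l2, chr2:75704664-75704913, minus strand: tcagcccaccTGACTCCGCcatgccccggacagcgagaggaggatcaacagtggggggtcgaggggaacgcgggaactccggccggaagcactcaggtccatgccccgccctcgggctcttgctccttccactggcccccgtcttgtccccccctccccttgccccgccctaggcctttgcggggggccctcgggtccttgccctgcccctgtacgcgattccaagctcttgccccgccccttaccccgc
Gclm, chr3:122245307-122245556, plus strand: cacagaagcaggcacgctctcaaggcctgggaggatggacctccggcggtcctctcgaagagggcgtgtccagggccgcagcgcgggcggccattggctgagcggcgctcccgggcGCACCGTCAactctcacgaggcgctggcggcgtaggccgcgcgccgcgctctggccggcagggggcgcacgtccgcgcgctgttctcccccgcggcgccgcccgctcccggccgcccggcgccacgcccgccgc
Prdx1, chr4:116685349-116685543, plus strand: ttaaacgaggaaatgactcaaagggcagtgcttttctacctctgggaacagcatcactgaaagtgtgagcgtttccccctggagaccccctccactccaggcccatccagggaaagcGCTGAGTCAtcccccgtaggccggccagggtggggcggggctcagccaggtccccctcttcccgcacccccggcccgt
Sod1, chr16:90220512-90220741, plus strand: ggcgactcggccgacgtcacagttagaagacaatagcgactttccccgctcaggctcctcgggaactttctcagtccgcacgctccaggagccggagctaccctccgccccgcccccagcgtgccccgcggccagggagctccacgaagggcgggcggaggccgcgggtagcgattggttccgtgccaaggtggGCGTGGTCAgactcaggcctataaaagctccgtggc

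The first base of the match lay at position -262 from the first base of the gene in Nfe2l2, -134 in Gclm, -78 in Prdx1 and -36 in Sod1. In Prdx1 the match also holds TGAGTCA, the motif of AP-1. A promoter window of 250 bases before to 50 after the RefSeq start was at hand for 49 of the 56 genes, and 11 of these genes (22.4%) held the core, against 1709 of 9936 genes of the table with a window (17.2%) and 3781 of all 27025 genes with a window (14%). A match is a description of letters and not evidence of binding.

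Aldh2 itself (ENSMUSG00000029455, chromosome 5, 121566027 to 121593824 on GRCm38, the build of all gene positions here) was listed at 0.879, 1.64, 1.2 and 1.26 FPKM in KO 1 to KO 4, against 31.1, 23.7, 25.5 and 25.2 FPKM in control 1 to control 4. FPKM scale reads or fragments to the length of the gene and to library depth, so levels can be set side by side between genes. The KO mean was 4.71% of the control mean, and the log2 difference of -3.61 ± 0.17 (SE) passed the test (limma on log2(FPKM + 1), Benjamini-Hochberg adjusted over all 14145 genes, adjusted p = 3.43e-05). Depth recovered from the FPKM was 17890000 to 18750000 reads or fragments in KO libraries and 17050000 to 17750000 in controls. Xist and Y-linked transcripts marked KO 1 and KO 2 as female and KO 3, KO 4 and all 4 controls as male, so sex and genotype cannot be told apart in KO 1 and KO 2. Y-linked transcripts were lower in the male KO libraries than in controls. They summed to 5.794 FPKM in KO 3 and 12.159 FPKM in KO 4, against 19.959 to 34.095 FPKM in controls. The cause was not tested. Long genes were low in KO 3 and KO 4: at a length of 9408 bp the fitted trend was -0.46 and -0.26 on the log2 scale, against 0.09 to 0.22 in controls. It was -0.12 in KO 1 and 0.17 in KO 2. At 949 bp the trend was 0.11, -0.02, 0.08 and 0.08 in KO 1 to KO 4, against -0.11 to -0.05 in controls. The antioxidant genes were shorter than all genes (median length 2787 bp against 3956 bp). They were also more abundant (median of the mean FPKM 22.9 against 5.98). FPKM over all genes summed to 308199, 275389, 320807 and 309285 in KO 1 to KO 4, against 265721 to 279839 in controls. The part of expression level in the contrasts with all genes below was not tested. Tubular epithelial markers, 10 genes, summed to between 889.3 and 6848 FPKM in KO libraries and between 1517 and 3395 FPKM in controls. Krt8 and Krt18 alone had 3553 and 2155 FPKM in KO 3. The KO mean was higher for 5 of the 10 and lower for 5. Epcam averaged 61.4 FPKM in KO and 132.1 FPKM in control cells, and Cdh1 78.8 and 162.9 FPKM (limma, adjusted p = 0.177 and 0.22). The median log2 deviation of the 10 from the control mean was -0.81, -1.79, 0.09 and 0.48 in KO 1 to KO 4, against -0.55 to 0.36 in controls. Of 14 proximal tubule markers only 6 were in the table, summing to between 11.5 and 43.9 FPKM in KO libraries and between 14.4 and 63.5 FPKM in controls. In RNA from whole cultures, fewer cells of a type and less RNA per cell cannot be told apart.

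Most of the antioxidant genes had a higher mean in KO than in control cells, but no single one passed the test. Of the 56 genes, 46 (82.1%) had a higher KO mean on the log2 scale and 10 (17.9%) a lower one, against 44.5% of all genes with a higher KO mean. Their median log2 difference was 0.37, against -0.06 for all genes. With limma at an adjusted p of 0.05, 0 of 56 were called in either direction, against 0.0778% of all genes (11 of 14145), of which 0.0212% were higher and 0.0566% lower. Msrb1 came nearest (adjusted p = 0.0996). At an unadjusted p under 0.05, 15 genes (26.8%) were higher in KO, where 7.58% of all genes were, and 3 (5.36%) were lower, where 11.6% of all genes were. In the authors' deposited table, 0 of the 56 had an adjusted p under 0.05, where 53 of all genes did, and the lowest among the 56 was 0.493. The authors also marked genes as up or down, without requiring an adjusted p under 0.05. Of the 56, 7 were marked up and 0 down, where 331 of all 14145 genes were marked up and 477 down.

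All 4 KO libraries lay above all 4 control libraries for 6 of the 56 genes (10.7%, against 4.76% of all genes): Msrb1, Gstm7, Glrx5, Sod1, Sod2 and Glo1. The count was 16 without KO 2 (28.6%, against 10.4% of all genes) and 16 without control 4 (28.6%, against 6.28% of all genes). The opposite, every KO library below every control, was seen for 0 of the 56 (6.86% of all genes), for 3 without KO 2 (5.36%, against 17.2% of all genes), for 2 without control 1 (3.57%, against 9.23%), and for 1 each without KO 1 or KO 3 (1.79%, against 10.4% and 8.38%). KO 2 was the KO library with the fewest genes above the controls: 16 of the 56 (28.6%) exceeded every control there, near the 29.6% of all genes that did. In each of KO 1, KO 3 and KO 4 the count was 29 (51.8%), against 31.3%, 31.0% and 32.1% of all genes. Without KO 2, 10 of 56 genes passed the test (17.9%, against 8.05% of all genes), all of them higher in KO (against 2.77% of all genes) and 0 lower (against 5.28% of all genes): Gstm7, Gpx1, Msrb1, Glrx5, Sod1, Prdx6, Prdx2, Gstm5, Txn2 and Gsto1. KO 2 is set apart here by the values of these same genes, so these calls are no independent support. Leaving out any other single library gave 0 calls among the 56. With the male libraries alone, KO 3 and KO 4 against the 4 controls, 20 passed (35.7%, against 44.4% of all genes): 18 were higher (32.1%, against 17.6% of all genes) and 2 lower (3.57%, against 26.7% of all genes), and all 10 genes called without KO 2 were among the 18. These male libraries are all part of the set without KO 2, so the shared calls are no separate check. With sex as a term in the fit of all 8 libraries, 12 passed (21.4%, against 34.2% of all genes), 10 of them higher (17.9%, against 12.6% of all genes) and 2 lower (3.57%, against 21.6% of all genes). No control was female, so the log2 differences of this fit were those of KO 3 and KO 4 against the controls. It is therefore no check separate from the male libraries alone. With limma-voom on the recovered reads, 31 passed (55.4%, against 53.1% of all genes), 28 of them higher (50.0%, against 22.4% of all genes) and 3 lower (5.36%, against 30.7% of all genes). This fit also weighted the libraries unequally, and the part of the weights in the calls was not tested. Without KO 3 and KO 4, 0 of 56 passed, against 0.099% of all genes, 0.0212% higher and 0.0778% lower.

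**Figure D1:**
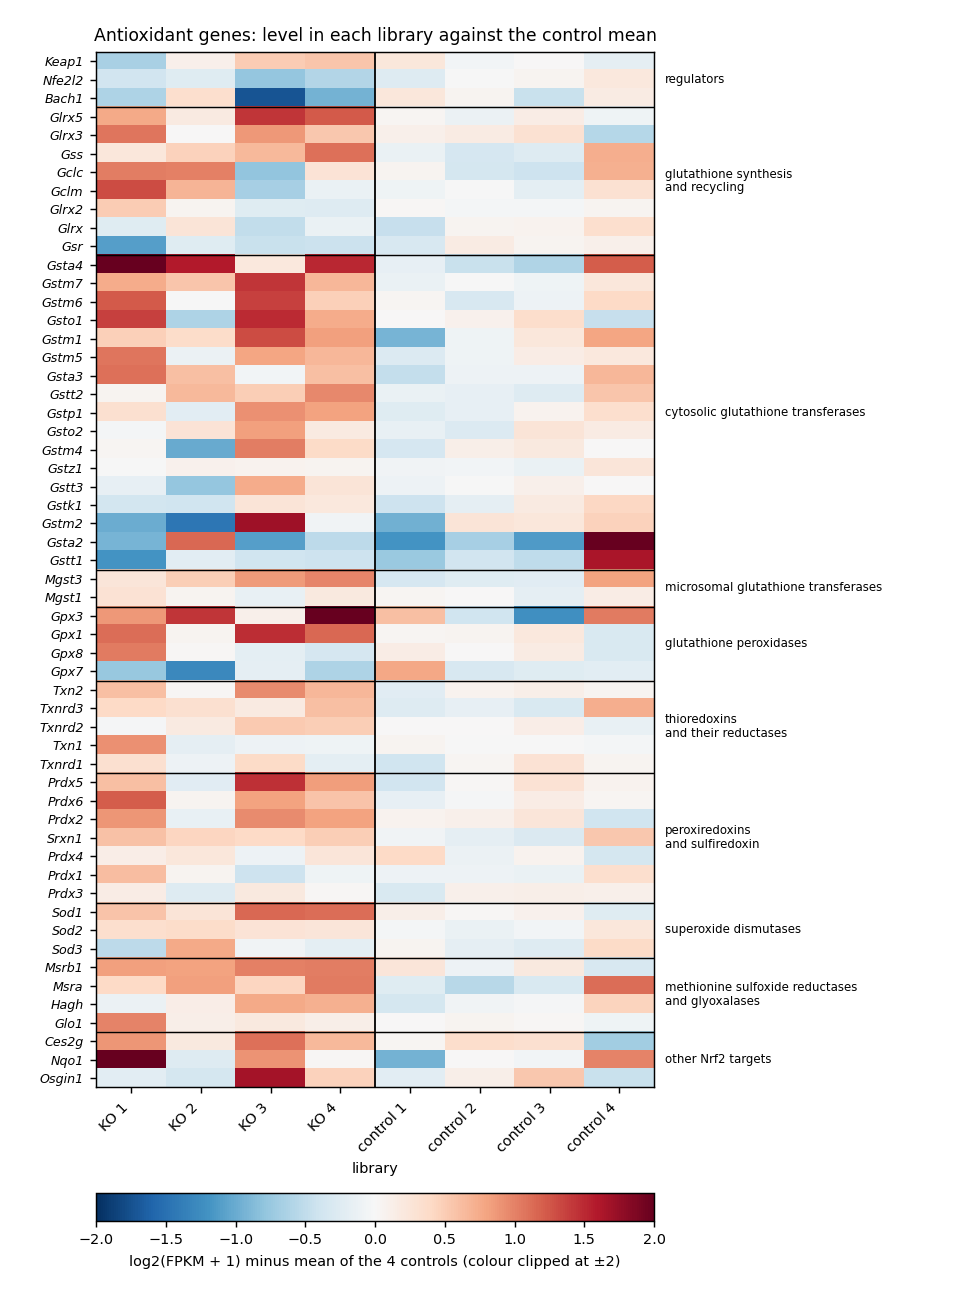
Level of each of the 56 antioxidant genes (rows, grouped by role) in each library (columns, KO 1 to KO 4 and then control 1 to control 4), as log2(FPKM + 1) minus the mean of the 4 controls. Colours are clipped at ± 2. Reds prevail in KO 1, KO 3 and KO 4, where 29 genes each (51.8%) exceeded every control, against 31.0% to 32.1% of all genes, and KO 2 is paler, with 16 (28.6%, against 29.6% of all genes).

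Of the 3 regulators, Nfe2l2 and Bach1 had a lower KO mean and Keap1 a higher one. Nfe2l2, which encodes Nrf2 (ENSMUSG00000015839, chromosome 2, 75675513 to 75704641, minus strand), had 41.3, 45.9, 31.5 and 36.0 FPKM in KO 1 to KO 4, against 45.5, 53.9, 56.5 and 62.9 FPKM in control 1 to control 4. KO 2 and control 1 alone overlapped. The means were 38.6 ± 6.25 FPKM in KO and 54.7 ± 7.21 FPKM in control cells (SD, n = 4 each), a log2 difference of -0.49 ± 0.18 (SE) that did not pass the limma test (adjusted p = 0.205). With the male libraries alone the difference was -0.67 and passed (limma, adjusted p = 0.0111), and with KO 1 and KO 2 alone it was -0.31 and did not (limma, adjusted p = 0.385).

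Bach1, the repressor (ENSMUSG00000025612, chromosome 16, 87698945 to 87733346, plus strand), had 5.07, 10.7, 1.82 and 3.84 FPKM in KO 1 to KO 4, against 9.9, 8.62, 5.81 and 9.43 FPKM in control 1 to control 4. KO 2 held the highest value of all 8 libraries and KO 3 the lowest. The log2 difference of -0.73 ± 0.38 (SE) did not pass with 8 libraries (limma, adjusted p = 0.316), and the male libraries alone gave -1.33 (limma, adjusted p = 0.00998). With KO 1 and KO 2 alone it was -0.14 (limma, adjusted p = 0.841), and without KO 3 it was -0.40. Keap1, the adaptor that marks Nrf2 for degradation (ENSMUSG00000003308, chromosome 9, 21229730 to 21239361, minus strand), had 5.37, 9.62, 13.1 and 13.5 FPKM in KO 1 to KO 4, against 10.6, 8.52, 9.01 and 7.82 FPKM in control 1 to control 4. KO 1 was the lowest of the 8 libraries, and KO 3 and KO 4 the highest. Its log2 difference was 0.13 ± 0.27 (SE) with all libraries (limma, adjusted p = 0.798), 0.53 with the male libraries alone (limma, adjusted p = 0.0184) and -0.27 with KO 1 and KO 2 alone (limma, adjusted p = 0.561).

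Among the 8 genes of glutathione synthesis and recycling, 6 had a higher KO mean, and the median log2 difference was 0.34. Gclc, the catalytic subunit of the ligase that makes the first and rate-limiting step (ENSMUSG00000032350, chromosome 9, 77754535 to 77794485, plus strand), had 39.2, 39.0, 10.4 and 23.0 FPKM in KO 1 to KO 4, against 19.7, 14.5, 13.9 and 31.3 FPKM in control 1 to control 4. KO 1 and KO 2 were above every control, and KO 3 was the lowest of the 8. Its modifier subunit Gclm (ENSMUSG00000028124, chromosome 3, 122245557 to 122270732, plus strand), whose promoter is printed above, had 52.2, 33.2, 12.5 and 18.5 FPKM in KO 1 to KO 4, against 19.1, 20.3, 17.7 and 25.5 FPKM in control 1 to control 4. The subunits thus shared their order in KO libraries, high in the female KO 1 and KO 2 and low in KO 3. The log2 difference was 0.38 ± 0.42 for Gclc and 0.29 ± 0.38 for Gclm (SE), neither past the limma test (adjusted p = 0.614 and 0.668). With the male libraries alone the differences were -0.26 and -0.40, and with KO 1 and KO 2 alone 1.02 and 0.99, none past the test.

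Gss, which completes glutathione (ENSMUSG00000027610, chromosome 2, 155563181 to 155592810, minus strand), had 9.72, 11.5, 13.2 and 18.6 FPKM in KO 1 to KO 4, against 7.35, 6.2, 6.59 and 14.2 FPKM in control 1 to control 4. Control 4 lay inside the KO range and the other 3 controls below it (log2 difference 0.61 ± 0.28 SE, limma, adjusted p = 0.27). Gsr, which returns oxidised glutathione to its reduced form (ENSMUSG00000031584, chromosome 8, 33652523 to 33698163, plus strand), had 45.1, 82.6, 72.1 and 73.0 FPKM in KO 1 to KO 4, against 78.2, 110.3, 102.6 and 105.3 FPKM in control 1 to control 4. Here 3 KO libraries lay below every control and KO 2 just above control 1 (log2 difference -0.55 ± 0.22 SE, limma, adjusted p = 0.233).

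Of the glutaredoxins, Glrx5, which hands on iron-sulfur clusters in mitochondria (ENSMUSG00000021102, chromosome 12, 105032688 to 105042906, plus strand), had 25.2, 16.5, 40.8 and 35.4 FPKM in KO 1 to KO 4, against 14.9, 13.3, 16.2 and 13.7 FPKM in control 1 to control 4. Every KO library was above every control, KO 2 by the least. The log2 difference was 0.90 ± 0.26 (SE; limma, adjusted p = 0.156) with 8 libraries, 1.14 without KO 2 (limma, adjusted p = 0.0265), 1.33 in male libraries alone (limma, adjusted p = 0.00324) and 0.47 with KO 1 and KO 2 alone (limma, adjusted p = 0.297). Glrx3, a cytosolic iron-sulfur glutaredoxin (ENSMUSG00000031068, chromosome 7, 137437614 to 137468594, plus strand), had 78.2, 36.9, 67.8 and 53.7 FPKM in KO 1 to KO 4, against 39.6, 41.3, 45.4 and 24.4 FPKM in control 1 to control 4, with KO 2 among the controls (log2 difference 0.62 ± 0.27 SE, limma, adjusted p = 0.257). The cytosolic Glrx and the mitochondrial Glrx2 stood at 2.11 to 5.12 FPKM in KO and 2.6 to 5.5 FPKM in control cells, with log2 differences of -0.15 and 0.02.

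**Figure D2:**
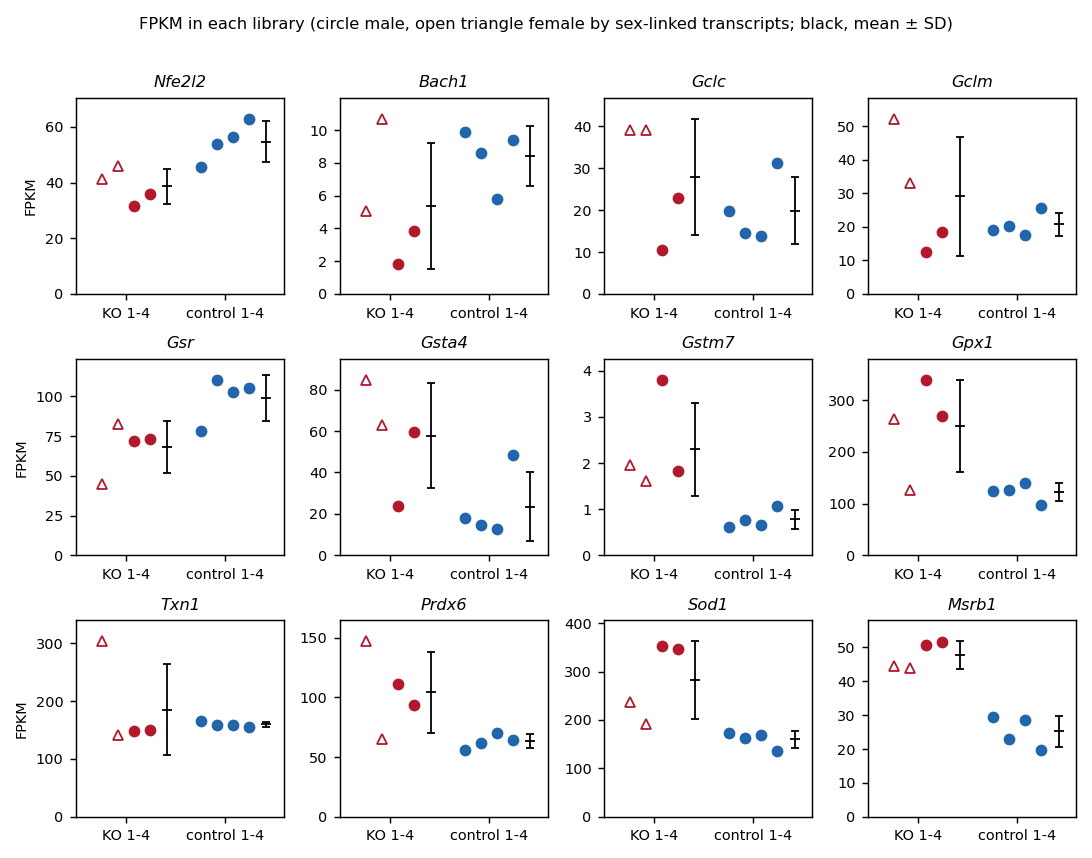
FPKM of selected antioxidant genes in each library, KO 1 to KO 4 at left and control 1 to control 4 at right in every panel. Circles are male and open triangles female libraries by sex-linked transcripts, and bars show the mean ± SD of 4. Msrb1 and Sod1 show no overlap between the groups, Gclc and Gclm are high in the female KO libraries, and Nfe2l2 is low in KO apart from KO 2.

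The 17 glutathione transferases with Gst symbols had a median log2 difference of 0.45, with 13 higher KO means. The figures label this group cytosolic, although Gstk1 in it is not a cytosolic enzyme. Gsta4, which conjugates hydroxynonenal, an aldehyde of lipid peroxidation (ENSMUSG00000032348, chromosome 9, 78182774 to 78209349, plus strand), had 84.6, 63.0, 23.7 and 59.7 FPKM in KO 1 to KO 4, against 17.9, 14.7, 12.9 and 48.3 FPKM in control 1 to control 4. KO 1, KO 2 and KO 4 were above every control, while KO 3 lay between control 1 and control 4. Its log2 difference of 1.33 ± 0.47 (SE), the greatest among the 56, did not pass (limma, adjusted p = 0.199) and was 0.86 with the male libraries alone (limma, adjusted p = 0.268). Gsta3 lay between 1.87 and 5.35 FPKM in KO and between 1.15 and 3.73 FPKM in control cells. Gsta2 was below 1 FPKM in all libraries but KO 2 (4.61 FPKM) and control 4 (19.1 FPKM).

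The mu-class genes, a cluster on chromosome 3 whose near-identical copies may share reads, so that each one's value is uncertain (as in the alpha and theta classes), had their highest level of the 8 libraries in KO 3 in all but Gstm5. Gstm7 (ENSMUSG00000004035, chromosome 3, 107926334 to 107931817, minus strand) had 1.97, 1.61, 3.8 and 1.82 FPKM in KO 1 to KO 4, against 0.615, 0.769, 0.668 and 1.08 FPKM in control 1 to control 4. The groups did not overlap, on counts of only 17 to 114 reads per library. The log2 difference was 0.85 ± 0.22 (SE; limma, adjusted p = 0.141), 0.95 without KO 2 (limma, adjusted p = 0.0432) and 0.65 with KO 1 and KO 2 alone (limma, adjusted p = 0.189). Gstm5 (ENSMUSG00000004032, chromosome 3, 107895821 to 107898686, plus strand) had 45.3, 19.4, 37.3 and 34.1 FPKM in KO 1 to KO 4, against 17.2, 19.8, 23.4 and 24.6 FPKM in control 1 to control 4. KO 2 was among the controls and the other 3 KO libraries above them (log2 difference 0.60 ± 0.26 SE, limma, adjusted p = 0.244). Without KO 2 it was 0.84 (limma, adjusted p = 0.0368), and with KO 1 and KO 2 alone 0.48 (limma, adjusted p = 0.476).

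Gstm1, the most abundant of the class, ranged over 112.9 to 217.1 FPKM in KO and 45.2 to 151.8 FPKM in control cells. Gstm2 spread widely, with 11.5, 8.19, 79.6 and 22.7 FPKM in KO 1 to KO 4, against 11.8, 28.9, 28.3 and 33.5 FPKM in control 1 to control 4. KO 3 was the highest and KO 1 and KO 2 the lowest, and the log2 difference was 0.81 with the male libraries alone and -1.22 with KO 1 and KO 2 alone. Gstm4 ran from 2.42 to 13.0 FPKM in KO and from 4.48 to 6.93 FPKM in control cells. Gstm6 was listed at 2.02, 0.281, 2.33 and 0.803 FPKM in KO 1 to KO 4, which are 74, 10, 87 and 29 reads, against 0.32, 0.0295, 0.198 and 0.696 FPKM in control 1 to control 4, which are 11, 1, 7 and 24 reads.

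Of the other Gst classes, Gsto1, an omega-class enzyme with glutaredoxin-like activity, had 182.4, 45.1, 198.0 and 117.3 FPKM in KO 1 to KO 4, against 70.7, 74.3, 89.7 and 50.8 FPKM in control 1 to control 4. KO 2 was the lowest of the 8 and the other 3 KO libraries the highest. Gstp1 ran from 91.7 to 200.9 FPKM in KO and from 89.8 to 135.1 FPKM in control cells. The log2 difference without KO 2 was 1.20 for Gsto1, which passed (limma, adjusted p = 0.0363), and 0.68 for Gstp1, which did not (limma, adjusted p = 0.0894), and with KO 1 and KO 2 alone it was 0.37 and 0.05. The theta-class genes Gstt1, Gstt2 and Gstt3 had log2 differences of -0.56, 0.54 and 0.01, those of Gstk1 and Gstz1 were -0.07 and 0.05, and Gsto2 stood at 1.44 FPKM or less in every library. Of the microsomal transferases, Mgst3 (ENSMUSG00000026688, chromosome 1, 167371966 to 167393841, minus strand) had 18.2, 21.8, 28.4 and 31.1 FPKM in KO 1 to KO 4, against 11.9, 12.8, 12.9 and 27.3 FPKM in control 1 to control 4, with control 4 inside the KO range (log2 difference 0.64 ± 0.28 SE, limma, adjusted p = 0.258). Mgst1 differed little, at 23.8 to 32.7 FPKM in KO and 23.2 to 29.5 FPKM in control cells.

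Glutathione peroxidases reduce peroxides with glutathione. Gpx1, the cytosolic and mitochondrial enzyme (ENSMUSG00000063856, chromosome 9, 108338903 to 108340343, plus strand), had 263.5, 126.9, 339.1 and 270.0 FPKM in KO 1 to KO 4, against 125.3, 126.2, 140.2 and 98.4 FPKM in control 1 to control 4. KO 2 was level with the controls, and the other 3 KO libraries were above all of them. The log2 difference was 0.95 ± 0.30 (SE; limma, adjusted p = 0.177), was 1.24 without KO 2 (limma, adjusted p = 0.0248), 1.31 with the male libraries alone (limma, adjusted p = 0.00358) and 0.59 with KO 1 and KO 2 alone (limma, adjusted p = 0.379). Gpx3, the secreted enzyme and by FPKM the most abundant of the 56, had 985.7, 1461, 579.7 and 2591 FPKM in KO 1 to KO 4, against 820.2, 409.7, 230.5 and 1110 FPKM in control 1 to control 4. KO 1 and KO 3 lay inside the control range and KO 2 and KO 4 above it (log2 difference 1.16 ± 0.58 SE, limma, adjusted p = 0.299).

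Gpx7, an enzyme of the endoplasmic reticulum (ENSMUSG00000028597, chromosome 4, 108400390 to 108406961, minus strand), had 1.26, 0.564, 2.36 and 1.5 FPKM in KO 1 to KO 4, against 5.53, 2.05, 2.23 and 2.28 FPKM in control 1 to control 4. Control 1 stood above the rest and KO 3 among the controls, on counts of 13 to 123 reads (log2 difference -0.71 ± 0.31 SE, limma, adjusted p = 0.253, with -0.45 without control 1 and -0.40 in the male libraries alone). Gpx8, also of the endoplasmic reticulum, was at 122.9 FPKM in KO 1 and 47.1 to 60.2 FPKM in the other KO libraries, against 47.6 to 66.7 FPKM in control cells.

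All 5 thioredoxins and thioredoxin reductases had a higher KO mean on the log2 scale, with a median log2 difference of 0.29. Txn2, the mitochondrial thioredoxin (ENSMUSG00000005354, chromosome 15, 77915047 to 77929006, minus strand), had 29.1, 19.2, 37.3 and 30.5 FPKM in KO 1 to KO 4, against 15.9, 19.7, 20.5 and 19.4 FPKM in control 1 to control 4. KO 2 lay among the controls and the other 3 KO libraries above them. The log2 difference of 0.56 ± 0.21 (SE) did not pass with 8 libraries (limma, adjusted p = 0.213), passed at 0.74 without KO 2 (limma, adjusted p = 0.0378) and was 0.32 with KO 1 and KO 2 alone (limma, adjusted p = 0.443). Txn1, its cytosolic counterpart (ENSMUSG00000028367, chromosome 4, 57943373 to 57956411, minus strand), had 303.3, 140.7, 148.4 and 149.9 FPKM in KO 1 to KO 4, against 165.6, 159.4, 158.7 and 155.9 FPKM in control 1 to control 4. KO 1 alone was above the controls and the other 3 KO libraries were below all of them, so the higher KO mean rested on KO 1 (log2 difference 0.13 ± 0.26 SE, limma, adjusted p = 0.781, and -0.13 without KO 1).

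Txnrd1, the cytosolic selenoprotein that reduces Txn1 (ENSMUSG00000020250, chromosome 10, 82833951 to 82897712, plus strand), had 86.6, 64.2, 90.3 and 60.1 FPKM in KO 1 to KO 4, against 52.3, 71.2, 84.8 and 71.3 FPKM in control 1 to control 4. The groups overlapped widely (log2 difference 0.10 ± 0.21 SE, limma, adjusted p = 0.793). The mitochondrial reductase Txnrd2 lay between 2.84 and 4.62 FPKM in KO and between 2.52 and 3.31 FPKM in control cells. Txnrd3 ran from 8.76 to 12 FPKM in KO cells, against 5.98 to 6.62 FPKM in 3 controls and 13.2 FPKM in control 4.

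The 6 peroxiredoxins, which reduce peroxides with electrons from thioredoxin or glutathione, and sulfiredoxin, which repairs them after overoxidation, all had a higher KO mean, with a median log2 difference of 0.48. Prdx6, the member that also acts on phospholipid peroxides (ENSMUSG00000026701, chromosome 1, 161240112 to 161251219, minus strand), had 146.7, 65.5, 111.0 and 93.9 FPKM in KO 1 to KO 4, against 56, 61.6, 70.0 and 64.4 FPKM in control 1 to control 4. KO 2 lay between control 3 and control 4 and the other 3 KO libraries above all controls. The log2 difference was 0.66 ± 0.24 (SE; limma, adjusted p = 0.206), 0.87 without KO 2 (limma, adjusted p = 0.0383) and 0.64 with KO 1 and KO 2 alone (limma, adjusted p = 0.35). Prdx2 lay between 97.3 and 209.2 FPKM in KO and between 81.2 and 127.0 FPKM in control cells. Prdx5, found in mitochondria and peroxisomes, had 181.1, 101.3, 328.4 and 211.7 FPKM in KO 1 to KO 4, against 90.9, 120.7, 144.7 and 124.0 FPKM in control 1 to control 4, with KO 2 again among the controls.

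Prdx1, one of the most abundant members and one with a printed promoter, had 319.2, 215.7, 157.2 and 195.7 FPKM in KO 1 to KO 4, against 194.8, 193.9, 189.8 and 264.9 FPKM in control 1 to control 4. KO 1 was the highest of the 8 and KO 3 the lowest, and the log2 difference was 0.04 ± 0.25 (SE; limma, adjusted p = 0.938). The mitochondrial Prdx3 and the endoplasmic Prdx4 had log2 differences of 0.03 and 0.13. Srxn1 (ENSMUSG00000032802, chromosome 2, 152105516 to 152111376, plus strand) had 31.0, 27.8, 26.9 and 29.1 FPKM in KO 1 to KO 4, against 19.3, 17.7, 16.4 and 30.0 FPKM in control 1 to control 4. The KO libraries lay close together, and control 4 alone reached their level (log2 difference 0.48 ± 0.20 SE, limma, adjusted p = 0.242).

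Superoxide dismutases turn superoxide into hydrogen peroxide. Sod1, the cytosolic copper-zinc enzyme (ENSMUSG00000022982, chromosome 16, 90220742 to 90226322, plus strand), had 237.1, 190.6, 352.9 and 345.5 FPKM in KO 1 to KO 4, against 173.4, 162.0, 169.6 and 135.0 FPKM in control 1 to control 4. No KO library overlapped the controls, and KO 3 and KO 4 stood highest. The means were 281.5 ± 80.5 FPKM in KO and 160.0 ± 17.3 FPKM in control cells (SD, n = 4 each), a log2 difference of 0.77 ± 0.24 (SE) that missed the threshold (limma, adjusted p = 0.177), while without KO 2 it was 0.94 (limma, adjusted p = 0.0375) and with KO 1 and KO 2 alone 0.41 (limma, adjusted p = 0.338). Sod2, the mitochondrial manganese enzyme, had 17.5, 18, 16.8 and 16.4 FPKM in KO 1 to KO 4, against 13.4, 12.4, 13.2 and 16.3 FPKM in control 1 to control 4. The groups did not overlap, but KO 4 exceeded control 4 only narrowly (log2 difference 0.30 ± 0.15 SE, limma, adjusted p = 0.293). The secreted Sod3 was at 1.64 FPKM or less in every library.

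The methionine sulfoxide reductases repair oxidised methionine, and Msrb1 was the gene of the 56 with the smallest p-value. Msrb1, a selenoprotein (ENSMUSG00000075705, chromosome 17, 24736642 to 24742778, plus strand), had 44.6, 43.9, 50.7 and 51.7 FPKM in KO 1 to KO 4, against 29.5, 23.1, 28.6 and 19.6 FPKM in control 1 to control 4. All KO libraries were above all controls, and KO 2 did not stand apart from KO 1. The means were 47.7 ± 4.06 FPKM in KO and 25.2 ± 4.67 FPKM in control cells (SD, n = 4 each), a ratio of 1.89 and a log2 difference of 0.91 ± 0.18 (SE; limma, adjusted p = 0.0996, unadjusted p = 0.00046). Its log2 difference was 0.81 with KO 1 and KO 2 alone (limma, adjusted p = 0.138) and 1.01 with the male libraries alone (limma, adjusted p = 0.00558). Msra lay between 3.62 and 6.13 FPKM in KO cells, against 1.37 to 1.94 FPKM in 3 controls and 6.54 FPKM in control 4.

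The glyoxalases Glo1 and Hagh remove methylglyoxal with glutathione. Glo1 had 92.8, 50.2, 53.1 and 50.2 FPKM in KO 1 to KO 4, against 46.4, 47.7, 47.0 and 43.4 FPKM in control 1 to control 4. The groups did not overlap, but 3 KO libraries were only slightly above the controls and KO 1 far above (log2 difference 0.36 ± 0.22 SE, limma, adjusted p = 0.369). Hagh ran from 20.9 to 39.5 FPKM in KO and from 17.7 to 31.6 FPKM in control cells.

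Nqo1, the quinone reductase most often used as a readout of Nrf2 (ENSMUSG00000003849, chromosome 8, 107388225 to 107403206, minus strand), had 18.5, 2.77, 7.45 and 3.62 FPKM in KO 1 to KO 4, against 1.34, 3.55, 3.37 and 8.06 FPKM in control 1 to control 4. KO 1 was the highest of the 8 libraries and the other 3 KO libraries lay inside the control range (log2 difference 0.69 ± 0.54 SE, limma, adjusted p = 0.481, with 0.22 without KO 1 and 0.37 without control 1). Osgin1, an oxidative stress induced growth inhibitor (ENSMUSG00000074063, chromosome 8, 119434124 to 119446256, plus strand), had 8.57, 7.69, 34.2 and 14.3 FPKM in KO 1 to KO 4, against 8.58, 11.1, 15.2 and 7.14 FPKM in control 1 to control 4. KO 3 alone exceeded the controls (log2 difference 0.39 ± 0.42 SE, limma, adjusted p = 0.613, and -0.29 with KO 1 and KO 2 alone). Ces2g, a carboxylesterase (ENSMUSG00000031877, chromosome 8, 104961718 to 104969537, plus strand), had 1.99, 0.86, 2.48 and 1.54 FPKM in KO 1 to KO 4, against 0.68, 1.07 and 1.02 FPKM in control 1 to control 3 and 0 in control 4, where 3 reads would have given 0.048 FPKM. KO 2 lay among the controls (log2 difference 0.70 ± 0.28 SE, limma, adjusted p = 0.233).

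**Figure D3:**
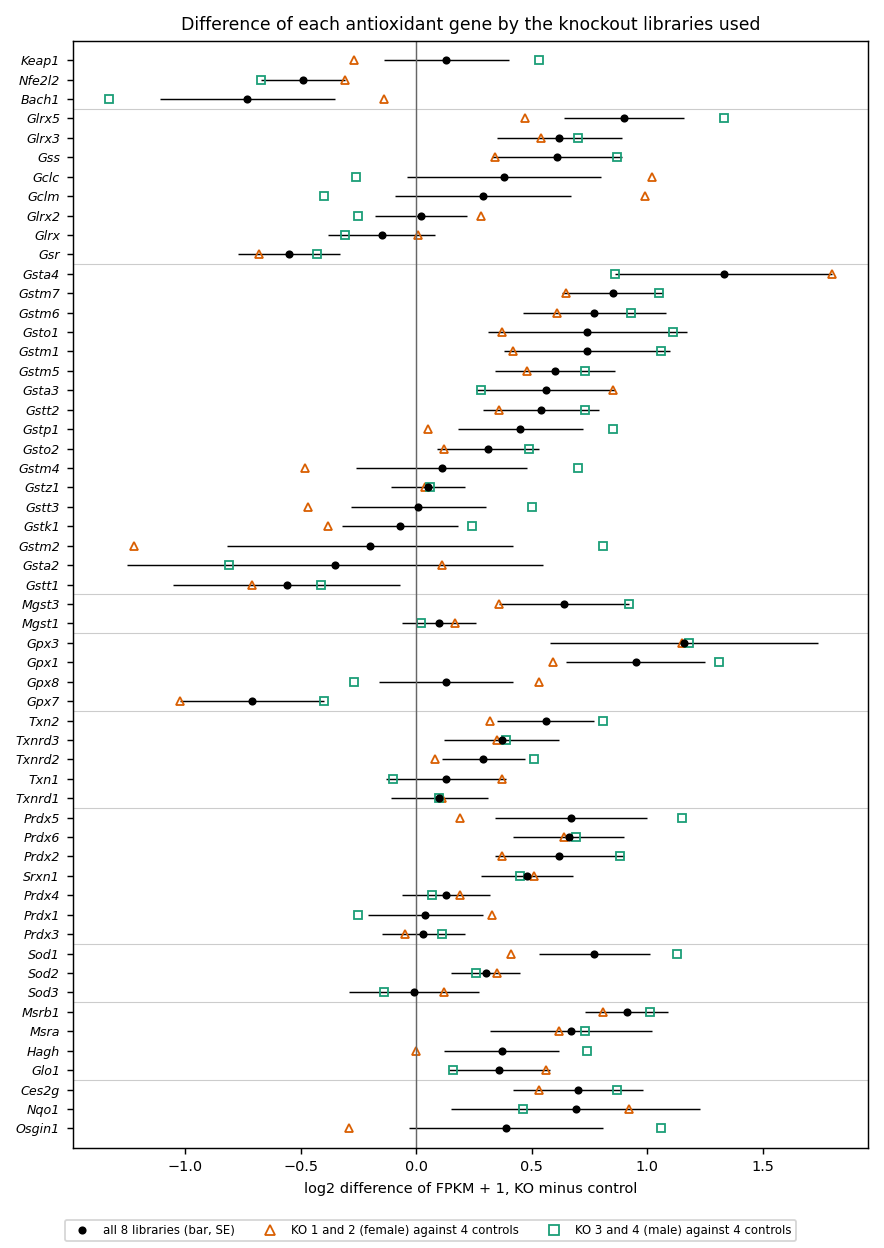
Log2 difference of FPKM + 1, KO minus control, for each of the 56 antioxidant genes, grouped by role. Filled circles with SE bars use all 8 libraries, open triangles KO 1 and KO 2 against the 4 controls, and open squares KO 3 and KO 4 against the 4 controls. Both pairs of KO libraries lie near the overall value for Msrb1 and Prdx6, while Gclc, Gclm, Gstm2 and Osgin1 lie on opposite sides of 0.

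Counted by pairs of KO libraries of one sex, the 56 genes stood as follows. Both KO 1 and KO 2 exceeded every control for 10 of the 56 genes (17.9%, against 12.6% of all genes) and lay below every control for 3 (5.36%, against 12.7% of all genes). Both KO 3 and KO 4 exceeded every control for 24 (42.9%, against 24.9% of all genes) and lay below every control for 5 (8.93%, against 36.3% of all genes). Of the 8 libraries, KO 3 held the highest value of 21 genes, KO 1 of 15, KO 4 of 6 and KO 2 of 3, against 8 in control 4, 2 in control 1, 1 in control 2 and 0 in control 3. The median deviation of the 56 genes from the control mean on the log2 scale was 0.40, 0.09, 0.46 and 0.47 in KO 1 to KO 4, against -0.12, -0.05, 0.04 and 0.19 in control 1 to control 4. Control 4 was thus above KO 2 on this measure.

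Other genes of the pathway were examined as lists, and 0 of their genes passed the limma test. At an unadjusted p under 0.05, where 7.58% of all genes were higher and 11.6% lower, the higher ones were 11 of 24 further Nrf2 targets (45.8%), 3 of 13 genes of NADPH supply (23.1%), 2 of 16 genes of cystine and glutathione turnover (12.5%) and 9 of 29 partners (31.0%). The lower ones were 1 of the 29 partners (3.45%) and 0 in the other lists. Of 24 further Nrf2 target genes measured, 21 had a higher KO mean, with a median log2 difference of 0.46. Cbr1, a carbonyl reductase, averaged 75.4 ± 11.0 FPKM in KO and 45.1 ± 0.748 FPKM in control cells (SD, n = 4 each), with no overlap between the groups (log2 difference 0.72 ± 0.16 SE, limma, adjusted p = 0.108). Hmox1, which breaks down heme, had 126.3, 89.5, 87.9 and 84.8 FPKM in KO 1 to KO 4, against 56.5, 59.1, 64.8 and 59.5 FPKM in control 1 to control 4, also with no overlap (log2 difference 0.67 ± 0.18 SE, limma, adjusted p = 0.148). Of 13 genes of NADPH supply, 11 had a higher KO mean, with a median of 0.17, among them Pgd of the pentose phosphate pathway at 56.4 ± 12.2 FPKM in KO and 34.5 ± 1.43 FPKM in control cells (SD, n = 4 each; limma, adjusted p = 0.15).

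Of 16 genes of cystine uptake, cysteine supply and glutathione turnover, 10 had a higher KO mean and 6 a lower one, with a median of 0.21. Among the 6 was Slc7a11, of cystine uptake, at 0.708 FPKM in KO and 1.03 FPKM in control cells (log2 difference -0.26 ± 0.20 SE, limma, adjusted p = 0.47). The smallest p of the list was that of Cndp2. Cndp2, a dipeptidase that can release cysteine from cysteinylglycine, averaged 131.0 ± 27.5 FPKM in KO and 64.3 ± 10.2 FPKM in control cells (SD, n = 4 each) without overlap (log2 difference 1.01 ± 0.20 SE, limma, adjusted p = 0.0996). Of 29 partners of the pathway and other redox proteins, 19 had a higher KO mean, with a median of 0.34. Selenow, a small selenoprotein, had 238.6, 87.2, 288.5 and 178.6 FPKM in KO 1 to KO 4, against 58.2, 58.8, 65.2 and 46.3 FPKM in control 1 to control 4, with KO 2 nearest to the controls (log2 difference 1.66 ± 0.34 SE, limma, adjusted p = 0.0996). Ccs, the copper chaperone of Sod1, averaged 32.7 ± 13.4 FPKM in KO and 17.7 ± 2.51 FPKM in control cells (SD, n = 4 each), with values of 20.9 and 21.6 FPKM in KO 1 and KO 2 close to the highest control at 19.9 FPKM (limma, adjusted p = 0.206).

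Markers of other cells moved among the libraries too. The summed level of 14 macrophage and leukocyte markers was 616, 1825, 233.8 and 1155 FPKM in KO 1 to KO 4, against 1107, 96.8, 113.2 and 50.3 FPKM in control 1 to control 4, and 14 of the 14 had a higher KO mean with a median log2 difference of 1.66. None of the 14 was listed at 0 in any library. KO 3, with the most genes of the 56 at their highest, had the lowest of these sums in KO cells, and KO 2, with the fewest in KO cells, had the highest. KO 1 and KO 4 followed the same order, with 15 and 6 genes at their highest and sums of 616 and 1155 FPKM. By the median deviation of the 56 genes KO 4 did not follow it. That deviation, 0.47, was the highest of all libraries, while the sum in KO 4 was the next highest after KO 2. The 6 proximal tubule markers measured summed to 12.4, 43.9, 11.5 and 21.4 FPKM in KO 1 to KO 4, against 14.4, 21, 19.3 and 63.5 FPKM in control 1 to control 4, and Slc27a2 among them was listed at 0 in KO 1, KO 3 and control 1. All 6 distal nephron markers measured had a lower KO mean, with a median of -1.31. Of 7 fibroblast and pericyte markers 5 had a lower KO mean (median -1.40). The other 2 were higher: Acta2 averaged 1044 FPKM in KO and 440.5 FPKM in control cells, and Tagln 6.41 and 2.7 FPKM (limma, adjusted p = 0.246 and 0.288). The 7 summed to 1778, 589.9, 1167 and 787.2 FPKM in KO 1 to KO 4, against 1180, 473, 589.9 and 133.9 FPKM in control 1 to control 4. All 3 endothelial markers measured had a lower KO mean (median -0.66), at a median level of only 0.538 FPKM. The part of these cells in the levels of the antioxidant genes was not tested. With the male libraries alone, 42 of the 56 had a higher KO mean, with a median of 0.50, against 43.5% and -0.11 for all genes. After levels were corrected for gene length and GC content, 44 of the 56 had a higher KO mean, with a median of 0.34, against 50.5% and 0.0 for all genes. Single genes moved both ways with this correction. The log2 difference fell from 0.91 to 0.59 for Msrb1, from 0.95 to 0.60 for Gpx1 and from 0.45 to 0.11 for Gstp1. It rose from 0.36 to 0.88 for Glo1, from 0.30 to 0.67 for Sod2 and from 0.77 to 0.83 for Sod1.

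**Figure D4:**
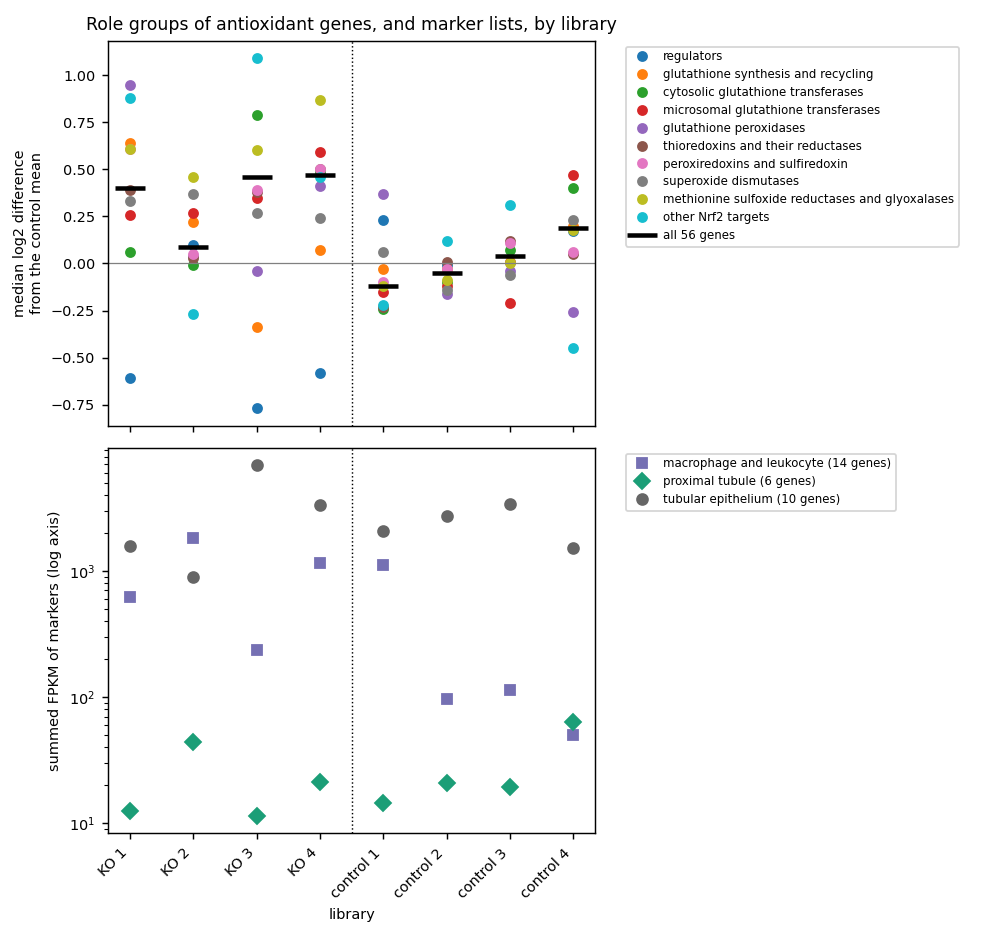
Upper panel: for each library, the median log2 difference from the control mean within each role group of antioxidant genes (points) and over all 56 (bars). Lower panel: summed FPKM of macrophage and leukocyte, proximal tubule and tubular epithelium markers in the same libraries, on a log axis. KO 2 has the lowest bar of the 4 KO libraries, at 0.09, and the highest macrophage sum, at 1825 FPKM. KO 4 has the highest bar of all, at 0.47, and the next highest macrophage sum, at 1155 FPKM. Control 4 has the highest bar of the controls, at 0.19, and the highest proximal tubule sum, at 63.5 FPKM, followed by KO 2 at 43.9 FPKM.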

How the data were processed

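RNA of 8 cultures, 4 KO and 4 control, was sequenced. Per the submitters' processing notes, GRCm38 was the build and the tools included STAR 2.4.1d, FastQC and DESeq2. The sources used here do not give how reads were counted or genes filtered. For each of 14145 genes the authors deposited 1 FPKM value per library, and also a log2 fold change, a p-value and an adjusted p-value, which are used here only where named. The values carry decimals and were treated as FPKM.

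Depth was recovered from FPKM and exon length in GENCODE M21: among values of 1 to 200 reads, whole numbers (tolerance 0.05 read) made up 95.0% to 95.5%, and 8.62% to 10.6% when the depth was set wrong on purpose. It is unknown here whether single reads or pairs were counted. Floors of 3 reads cover counting error only. Libraries of 1 group differed beyond counting noise (mean chi-square per gene 12 or more).

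Values were tested as log2(FPKM + 1), which understates the change of low genes, with limma 3.58.1 (R 4.3.3), a variance trend, genotype as the only term, all 8 libraries and all 14145 genes, two-sided, with Benjamini-Hochberg adjustment at 0.05. The procedure was also run on simulated data drawn with the spread of the control libraries. Mean chi-square per gene between libraries was 82.7 to 337 in KO and 12 to 135 in controls. The simulation therefore does not show how the test performs with the spread of the KO libraries. Genes given in full were those of the 16 smallest p-values with a mean log2 level of at least 1 and the main regulators and enzymes of the pathway; 6 more were given for their level and 3 for the lowest differences, with overlaps. Members and lists were chosen with earlier results of these data known. Alternatives changed the pseudocount (0.1 or 0.5), the filter (FPKM of 1 in 4 libraries), the scaling, the trend, the libraries used, sex as a term and the replicate block. Others removed length and GC trends, or used limma-voom with a weight for each library on recovered reads.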

Additional observations from a re-analysis of the deposited data

Results flagged for a closer look

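Within each group of 4 libraries, a gene was marked when its highest or lowest library lay far from the nearest of the others (the gap, divided by the group's range, above Dixon's critical value). Of 112 groups tested over the 56 genes, 15 were marked. The rule marks about 5% of groups when values are independent and normally distributed. The share marked over all genes was not computed, so an excess particular to the 56 cannot be read from this count. The other 3 libraries of the group are given as the range from the nearest to the farthest.

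In control 4, 9 genes stood high. They were Gsta2 at 19.1 FPKM (others 0.598 to 0.0984), Gstt1 at 11.4 (2.07 to 1.4), Gsta4 at 48.3 (17.9 to 12.9), Gss at 14.2 (7.35 to 6.2), Mgst3 at 27.3 (12.9 to 11.9), Gstt2 at 12.3 (7.2 to 6.54), Msra at 6.54 (1.94 to 1.37), Txnrd3 at 13.2 (6.62 to 5.98) and Prdx1 at 264.9 (194.8 to 189.8). Control 4 also had the highest summed level of the 6 proximal tubule markers (63.5 FPKM); the part of these cells was not tested.

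In KO 1, Txn1 stood at 303.3 FPKM (others 149.9 to 140.7) and Glo1 at 92.8 FPKM (others 53.1 to 50.2). Gsta2 was at 4.61 FPKM in KO 2 (others 0.749 to 0.181), and Gstm7 at 3.8 FPKM in KO 3 (others 1.97 to 1.61). In control 1, Gpx7 was high at 5.53 FPKM (others 2.28 to 2.05) and Prdx3 low at 46.9 FPKM (others 62.4 to 63.2).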

How the results depend on the processing

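The median log2 difference of the 56 genes stayed between 0.30 and 0.53 in all settings run, and that of Aldh2 between -4.33 and -3.53. Calls depended on the libraries and the model. With sex as a term the log2 differences equalled those in male libraries, because no control was female, so these settings are not separate checks. The count of all genes called, 11 with all libraries, was 1 with length and GC trends removed, 3 with a pseudocount of 0.1, 4838 with sex as a term, 6275 with the male libraries alone, 7505 with limma-voom, and 1 to 1139 when each library was left out in turn. Members called higher, 0 with all libraries, numbered 10 with sex as a term, 18 in male libraries, 28 with limma-voom and 0 to 10 with each library left out (10 without KO 2), and members called lower 2, 2, 3 and 0 to 0. Members without overlap and higher, 6 with all libraries (10.7%, against 4.76% of all genes), were 24 in male libraries (42.9%, against 24.9%) and 10 without KO 3 and KO 4 (17.9%, against 12.6%). With each library left out they were 6 to 16 (10.7% to 28.6%, against 5.14% to 10.4%). Those without overlap and lower, 0 with all libraries (against 6.86% of all genes), were 5 in male libraries (8.93%, against 36.3%) and 3 without KO 3 and KO 4 (5.36%, against 12.7%). With each library left out they were 0 to 3 (at most 5.36%, against 7.22% to 17.2%). They were 2 with trends removed and 1 with median-ratio scaling, where the share of all genes was not computed. Among the genes given in full, directions turned for Gclc in male libraries (-0.26) and with sex as a term (-0.26), for Gclm in the same settings (-0.40 and -0.40) and with limma-voom (-0.06), for Txn1 in the same 3 settings (-0.10, -0.10 and -0.06), for Txnrd1 with limma-voom (-0.15), and for Keap1 (-0.27) and Osgin1 (-0.29) without KO 3 and KO 4. With each library left out they ran from -0.05 to 0.61 for Gclm, -0.01 to 0.38 for Keap1, -0.04 to 0.63 for Osgin1, -0.13 to 0.24 for Txn1 and -0.03 to 0.20 for Txnrd1, lowest without KO 1 for Gclm and Txn1, KO 4 for Keap1, KO 3 for Osgin1 and control 1 for Txnrd1. Over all 56 genes the sign turned for 8 in male libraries (also Glrx2, Gpx8, Gstk1, Gstm2 and Prdx1), for 2 without KO 2 (Gstk1 and Gstm2) and for 8 without KO 3 and KO 4 (also Glrx, Gsta2, Gstm4, Gstt3, Prdx3 and Sod3). The causes were not tested. The replicate numbers did not pair the libraries: deviations of same-numbered libraries correlated at 0.04, -0.21, 0.61 and -0.04, and not every library correlated best with its own number. With the replicate block, 1 gene was called and 0 of the 56. A planned quasi-likelihood count model was not run, and limma-voom with library weights was the one test made on recovered reads. Depth limits Gsta2, Gstm6, Gsto2, Sod3, Gstm7, Gpx7, Gstt1, Ces2g and Nqo1, each with a median under 100 reads per library.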
